A study of Mus musculus with 13 samples.

Results

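The data described here are a dye-swap pair of 2-colour arrays, 2 of the 13 arrays in the series, on which RNA labelled NT1 1 was set against RNA labelled TBV2. The arrays were chosen by the sources named for their channels. By the series title, NT1 is the Sall4 -/- line and TBV is its comparison. NT1 1 carried Cy5 on the first array (array 1) and Cy3 on the second (array 2), and TBV2 carried the other dye. Both sources were mouse total RNA, the array descriptions speak only of different passages, and the labels give no passage number for NT1 1 or TBV2, no cell type and no treatment. The other 11 arrays hold NT1p14 with TBVp13 (5 arrays), NT1p12 with TBVp12 (4 arrays) and NT1p12 with TBVp13 (2 arrays), and none of them names NT1 1 or TBV2 as a source. A mouse embryonic stem cell line called TBV2 exists, although the labels do not tie the RNA to it. How the NT1 line was made, and whether it is 1 clone, is not given in the sources used here.

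Sall4 is a zinc finger transcription factor of the early embryo and of embryonic stem cells, where it acts with Oct4, the product of Pou5f1, in the network that keeps the cells pluripotent. Embryonic stem cells are often grown on a layer of fibroblast feeder cells, which make collagen, vimentin and matrix proteases that the stem cells make little of. RNA from such a culture can therefore hold transcripts of both cell types. On bulk arrays, fewer cells of a type and less RNA per cell cannot be told apart.

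A dye-swap measures the same RNA again with the dyes exchanged. A gene that differs between the sources keeps its side once the second array is turned around, while a gene that prefers a dye changes side. Each array was centred on its median, the sign of array 2 was turned, and every value below is a log2 ratio of NT1 over TBV, array 1 first and array 2 second. The pair is 1 biological replicate, so it supports no p-value of its own. A gene was called agreeing when both orientations lay on the same side of 0 and both were at least 0.5 in size, which is 1.41-fold if the logarithm is base 2. Which source is the numerator is read from the dyes as Cy5 over Cy3; the files do not state it, so the direction of all values rests on that reading.

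Of 20205 probes on the array, 17802 had a value on array 1, 18046 on array 2 and 17359 on both, which gave 8552 named genes. These 2 arrays kept their decimals better than the others: 2.4% and 3.58% of the values were whole numbers, against 8.08% to 40.4% on the other 11. Every value of size 1 or more was nonetheless whole, 426 on array 1 and 449 on array 2. An array value printed below without decimals was deposited as a whole number; it stands for a coarse step, and genes at 1 have no order among them. All 334 probes with a whole number other than 0 on array 1 were also whole on array 2, and 197 of these were 0 there. Whether the decimals were rounded or dropped is not known.

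Across genes the orientations shared almost no pattern. Of the 8552 genes, 4382 (51.2%) lay on the same side of 0, and the correlation across genes was -0.0036 (Pearson) and 0.06 (Spearman), where genes are not independent replicates. The mean of the orientations, which carries any difference between sources together with array noise, had an SD over genes of 0.243. The part that follows the dye, which holds noise too, had one of 0.244. With a correlation near 0 these SDs come out alike, so they do not give the size of a source difference. The agreeing genes numbered 158 (1.85% of the genes measured), with 96 higher (1.12%) and 62 lower (0.725%) in NT1 1. Against these, 105 genes (1.23%) were at least 0.5 in size with opposite sides, 18 higher and 87 lower in the Cy5 channel. At a size of 0.3 the counts were 451 agreeing and 340 opposite, at 0.75 they were 50 and 49, and at 1 they were 30 and 38. At 0.75 agreement was thus about as frequent as disagreement, and at 1 it was less frequent, so any single agreeing gene has to be read against the opposite count.

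**Figure D1:**
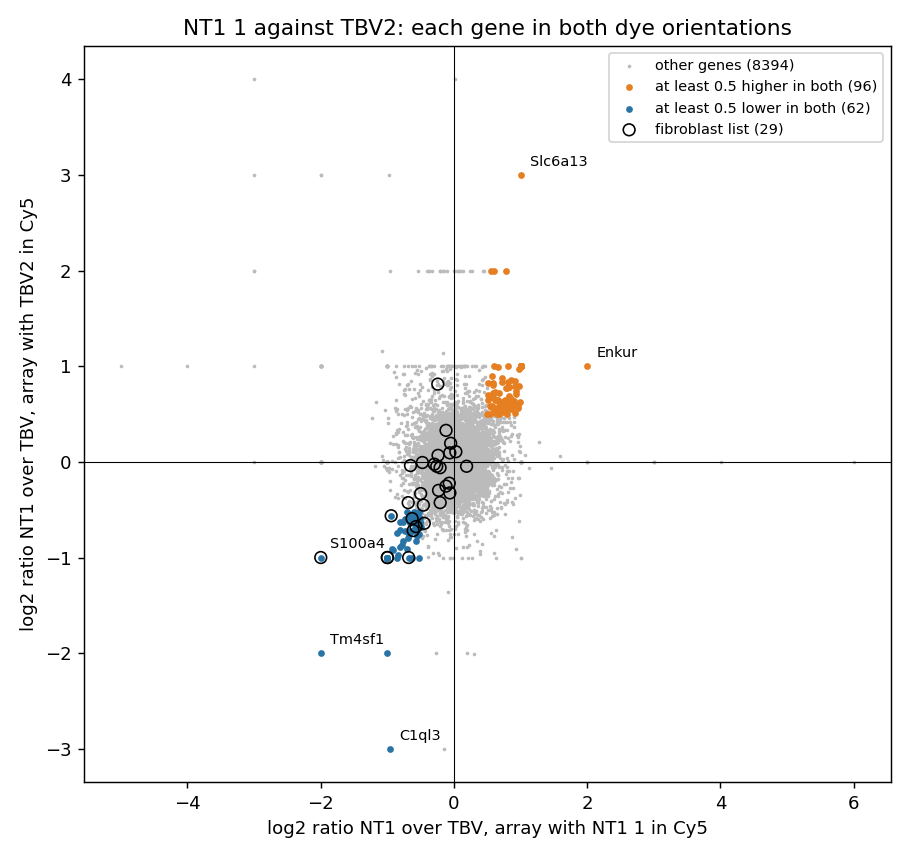
Each point is 1 of the 8552 genes, with its log2 ratio NT1 over TBV on array 1 (NT1 1 in Cy5, horizontal) and array 2 (TBV2 in Cy5, vertical). The cloud is round, with 96 agreeing higher genes at the upper right and 62 agreeing lower genes at the lower left, and 22 of the 29 circled fibroblast genes lie below 0 in both orientations.

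The gene targeted in the NT1 line lay below 0 in NT1 1 without reaching the agreeing size. Sall4 had values of -0.26 and -0.39, below 0 in both orientations, as were 26.3% of all genes. Its mean of -0.32 is to be read against the SD of 0.243 over all genes. In the other pairs Sall4 was at 0.07 (NT1p14 with TBVp13), -0.59 (NT1p12 with TBVp12) and -0.22 (NT1p12 with TBVp13). Whether its probe lies in a deleted part of the gene is not given in the sources used here. Pou5f1, which encodes Oct4, had values of -0.56 and -0.47 and missed the size on array 2 alone. Of the other stem cell markers, Utf1 had -0.29 and -0.42, Fgf4 had -0.29 and -0.27, and Klf4 had -0.32 and -0.01. Zfp42 was at 0.01 and -0.03 and Esrrb at 0.00 and -0.05, close to 0 in both orientations, while Dppa5a was on the other side at 0.36 and 0.17. The 7 measured stem cell markers of 8 ranged from -0.51 to 0.27, with a median of -0.16, and none was agreeing. These are ratios between the sources, so they do not show how strongly either source expressed a marker.

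Fibroblast genes were the group that stood lowest in NT1 1. Of 44 genes on the fibroblast list, 29 were measured, and 8 of these (27.6%) were agreeing lower, against 0.725% of all genes; 0 were agreeing higher. With values that kept their decimals on both arrays alone the count was 4 of 25, and at a size of 1 it was 3. Below 0 in both orientations were 22 genes, against 26.3% of all genes, while 1 was above 0 in both and 6 had opposite sides. The list median was -0.29 on array 1 and -0.30 on array 2, and the median of the genes' means was -0.26, against -0.01 over all genes. The list had been seen to be low in this pair in earlier work on these data, so its direction is not independent evidence.

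Among the 8, Vim, which encodes the intermediate filament of fibroblasts and other mesenchymal cells, was at -1 on both arrays. Its 2 probes gave the same value each. S100a4, a calcium-binding protein also called fibroblast-specific protein, was at -2 and -1. Mmp3, the secreted protease stromelysin, was at -1 and -1. These 3 carried whole numbers on both arrays, so their size is known only in steps.

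The other 5 lower genes of the list were collagens and a contractile protein. Acta2, smooth muscle actin of myofibroblasts, was at -0.94 and -0.56. Col5a2, a chain of the fibril-forming collagen V, was at -0.68 and -1. Col3a1, the chain of collagen III, was at -0.57 and -0.68. Acta2 was lower on array 1, the other 2 on array 2. Col6a1 and Col6a3, chains of the beaded-filament collagen VI, were at -0.61 and -0.72, and at -0.63 and -0.59.

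Most of the remaining members lay on the same side with smaller values. Col1a1, a chain of collagen I, was at -0.69 and -0.43, Ccn1, a matrix-associated signalling protein, at -0.44 and -0.64, and Cd44, the hyaluronan receptor, at -0.46 and -0.45. Sparc, a collagen-binding matrix protein, was at -0.50 and -0.33. These 4 missed the agreeing size in 1 or both orientations. Ccn2 (-0.65 and -0.04) and Thy1 (-0.47 and -0.01), a surface marker of fibroblasts, were low on array 1 and near 0 on array 2. Col1a2, the other chain of collagen I, was on opposite sides at -0.24 and 0.81 as the average of 3 probes, and Dcn, which encodes the proteoglycan decorin, was the member above 0 in both at 0.03 and 0.11. The means of the list ran from -1.50 (S100a4) to 0.29 (Col1a2).

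**Figure D2:**
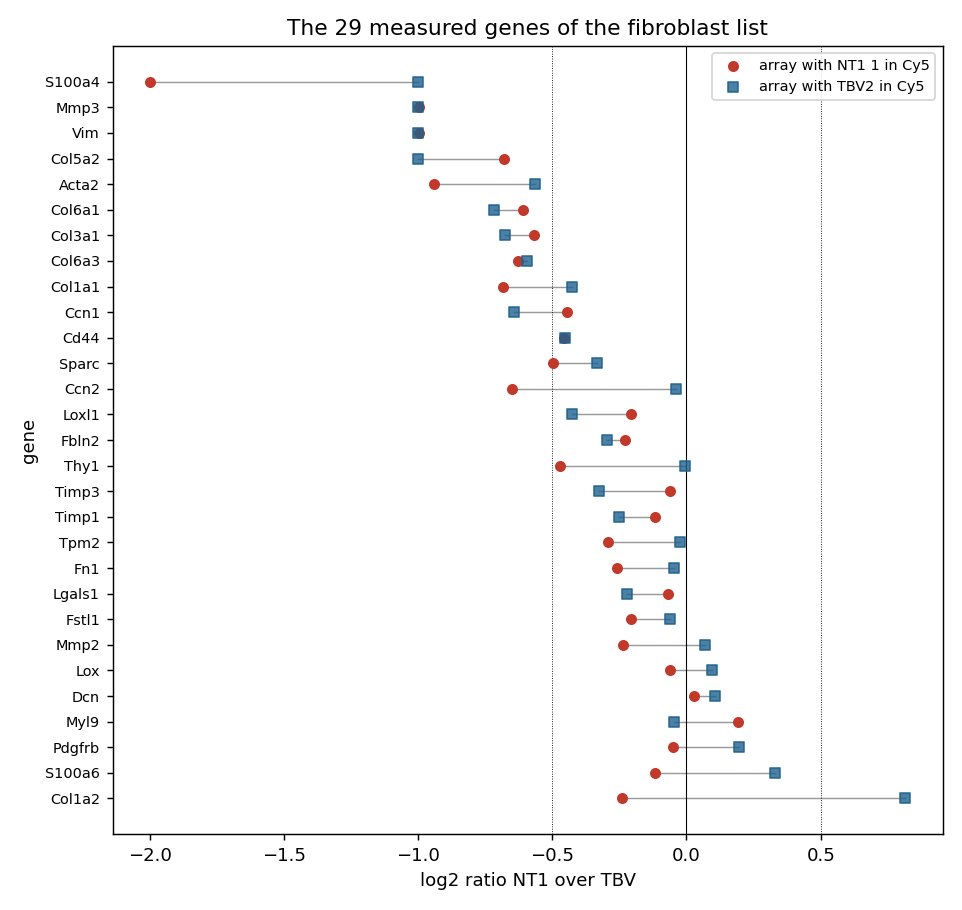
The 29 measured genes of the fibroblast list, ordered by their mean, with the log2 ratio NT1 over TBV on each of the 2 arrays and dotted lines at the agreeing size of 0.5. The 8 agreeing genes lie left of -0.5 in both orientations, and Col1a2 shows the widest gap between its 2 points, -0.24 and 0.81.

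Lower genes outside that list numbered 54, and several encode matrix, membrane or secreted proteins. Tm4sf1, a small membrane protein of endothelial and mesenchymal cells, was at -2 in both orientations and was the only agreeing gene of size 2 or more on both arrays. Axl, a receptor tyrosine kinase for Gas6, and Inhba, the subunit of activin A, were at -1 in both. Nrp1, a co-receptor for semaphorins and VEGF, was at -0.91 and -0.92 with its decimals intact. Has2, which makes hyaluronan, was at -0.85 and -0.74. Gja1, the gap junction protein connexin 43, was at -0.70 and -0.91. All 6 lay on the lower side on both arrays, between -0.70 and -2. Among matrix genes, Thbs2 (thrombospondin 2) was at -0.61 and -0.61 over 2 probes, Mmp13 (collagenase 3) at -0.56 and -0.57, Mgp (matrix Gla protein) at -0.55 and -0.57, and Fbln5 (fibulin 5) at -0.59 and -0.52. These genes were named after their values were seen, and no list holds them together. The share of such genes among all genes measured was not counted.

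Itgb1, the beta 1 integrin chain through which cells hold the matrix, was low on all 5 of its probes. The probes ran from -0.26 to -0.51 on array 1 and from -0.56 to -0.74 on array 2, and their average of -0.41 and -0.65 fell short of the agreeing size on array 1. Serpinh1, the collagen chaperone HSP47, was at -0.48 and -0.61, and Cald1 (caldesmon), an actin-binding protein, at -0.41 and -0.57. The actin cytoskeleton list as a whole had 33 measured genes, 0 agreeing in either direction and a median of -0.02. Itgb1 and Cald1 are themselves members of that list, and its count is close to the 0.725% of all genes that were agreeing lower.

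Other lower genes act in metabolism, RNA handling and signalling. Hnrnpl, which regulates splicing, was at -1 and -2. Rara, a nuclear receptor for retinoic acid, was at -0.86 and -1. Nans, which makes sialic acid, was at -0.93 and -0.91, and Nabp2, a single-stranded DNA-binding protein of the DNA damage response, at -0.83 and -0.97. Among genes against oxidative stress, Gpx1 (glutathione peroxidase) was at -0.81 and -0.89, Gsto1 (a glutathione transferase) at -1 and -1, and Glrx (glutaredoxin) at -0.76 and -0.82. The integrated and oxidative stress list held 1 agreeing gene of 34 measured, Gpx1, so these 3 do not stand for that list. Plk2 (-0.68 and -0.77) and Ccng1 (-0.50 and -0.59, all 3 probes below 0), both known targets of p53, were agreeing lower. They were the agreeing genes among 23 CDK inhibitors and p53 targets, 8.7% against 0.725% of all genes, a share that rests on 2 genes. In that list 7 genes lay below 0 in both orientations, close to the 26.3% of all genes, and 3 above. Also in the 15 largest were C1ql3, with -0.95 and -3, Crybb2 and Lyplal1, both at -1 and -1.

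Car2, carbonic anhydrase 2, shows how far an average can hide its probes. Its average of -0.56 and -0.61 was agreeing lower, from 2 probes at -1 in both orientations and another at 0.31 and 0.16. Over all agreeing probes whose gene has another probe, the other probes' mean lay on the same side for 14 of 32 higher and 19 of 28 lower probes. Among the 1149 genes with exactly 2 probes, 51.3% had both probe means on the same side. For higher genes a call on 1 probe was thus borne out by the other probes no more often than that share. For lower genes it was borne out more often, without a test of that difference. Agreeing probes of the same gene, such as the 2 of Car2, were each counted, so these counts are not independent.

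**Figure D3:**
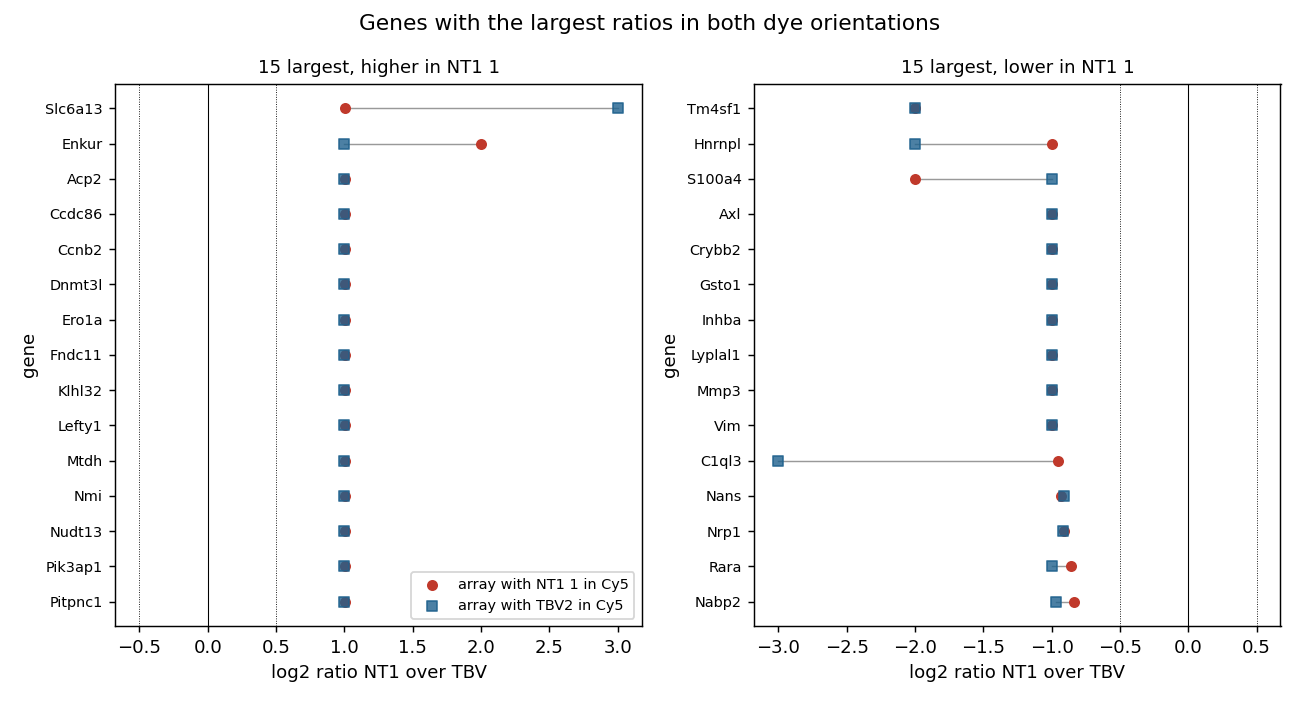
The 15 agreeing genes in each direction with the largest size in their smaller orientation, ties in order of the mean and then of the alphabet, with the log2 ratio NT1 over TBV on array 1 (circle) and array 2 (square). The points stack at 1 and -1 because all values of size 1 or more are whole numbers; Nans, Nrp1, and Nabp2 kept decimals on both arrays.

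Higher genes in NT1 1 did not gather in a group of the lists. Dnmt3l, the catalytically inactive partner of the de novo DNA methyltransferases in germ cells and stem cells, was at 1 in both orientations. Lefty1, a secreted inhibitor of Nodal, was also at 1 in both, as were Rhox5, a homeobox gene of the reproductive cluster on the X chromosome, and Ccnb2, a cyclin of mitosis. Rps20, a protein of the small ribosomal subunit, and Psme1, a subunit of the proteasome activator, had the same values. All 6 had whole numbers on both arrays, as did 20 of the 96 higher and 10 of the 62 lower genes. Slc6a13, a GABA transporter, was at 1 and 3 and Enkur, a ciliary protein, at 2 and 1. Since 20 higher genes reached 1 in both, ties were broken by the mean and then by the alphabet, which left out Psme1, Rhox5 and Rps20 among others at the same value. The other 10 of the 15 shown (Acp2, Ccdc86, Ero1a, Fndc11, Klhl32, Mtdh, Nmi, Nudt13, Pik3ap1 and Pitpnc1) were at 1 in both orientations.

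Below that step the higher genes kept decimals. Pvalb, the calcium buffer parvalbumin, was at 0.97 and 0.97, Mdh1b, a malate dehydrogenase homologue, at 0.91 and 0.84, and Apbb1, which binds the amyloid precursor protein, at 0.86 and 0.85. Cox5a, a subunit of cytochrome c oxidase, was at 0.79 and 0.77 and was the agreeing gene among 56 of oxidative phosphorylation. Top2a, the topoisomerase of dividing cells, was at 0.84 and 0.58. Aldoa, the glycolytic aldolase, was at 0.59 and 0.58, and its 2 probes lay between 0.54 and 0.61. The median of the means was 0.75 for higher and -0.70 for lower genes, which the size rule largely sets.

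Many agreeing genes of both directions could be linked by their values elsewhere in the series. Of 128 agreeing genes with at least 10 values on the other 11 arrays, 51 were linked by correlations over 0.9 into the largest group, 28 higher and 23 lower here, with Vim, Acta2, S100a4 and Plk2 beside Top2a, Aldoa and Ccnb2. A separate group of 17 was picked as the largest whose genes all lay on one side here, so its single direction follows from that choice. Its genes were all higher. Both groups were found after the values were seen. A gene joined a group through its correlation with any 1 member, so members need not all correlate with each other. Only agreeing genes were linked. Whether other genes would link as often was not tested. The 17 include Snrpd1 (a core spliceosome protein), Mrps7 (of the mitochondrial ribosome), Hltf, Zfhx3, Stt3a, Cd3eap and Ston1, which share no evident function. In NT1 1 against TBV2 these 17 lay between 0.59 and 0.96 on array 1 and between 0.55 and 0.88 on array 2. The size rule allows no value under 0.5 there. Probe numbers from 7000 to 7999 held 27 agreeing higher probes of 910 measured (2.97%), against 0.586% to 2.32% in the other blocks of 1000. This block is named because its share was the highest. It held 5 of the 17 genes, and the rest were spread over other blocks. The part of position on the array in these values was not tested. Without the 17, 79 higher genes remained.

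Of the 25 lists, the fibroblast list had the lowest median and the cytosolic ribosome the highest, 0.10. Of 40 cytosolic ribosomal proteins, 24 lay above 0 in both orientations and 3 below, against 24.9% and 26.3% of all genes, with medians of 0.15 on array 1 and 0.11 on array 2, and Rps20 was agreeing. The cell cycle and replication list had a median of 0.10, with 22 of 49 genes above 0 in both and 10 below, and 2 agreeing higher, Ccnb2 and Top2a. Mitochondrial ribosomal proteins had a median of 0.06 and 19 of 47 above against 5 below; Mrps7 and Mrpl54 (0.59 and 0.68) were agreeing. These shifts were small in size and lay on the same side in both orientations.

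Of all genes, 24.9% lay above 0 in both orientations, 26.3% below and 1.85% were agreeing, and counts in the smaller lists are to be read against these shares. Of 31 naive pluripotency genes measured, 7 were above 0 in both orientations, 11 below and 13 on opposite sides, with a median of -0.02; Dnmt3l and Lefty1 were the agreeing members. Of 20 imprinted genes, 9 lay above and 3 below with a median of 0.07 and 0 agreeing; H19, the maternally expressed growth-restraining RNA, was at 0.43 and 0.36, and Peg3, a paternally expressed zinc finger gene, at 0.27 and 0.55. Germline genes had 1 agreeing member in each direction, Rhox5 and the lysozyme-like Lyzl4 (-0.62 and -0.62). In the list of chromatin complexes, Dnmt3l was higher and Arid1a, a subunit of the BAF remodelling complex, lower at -0.65 and -0.57, with a median of 0.01 over 36 genes. Of 97 zinc finger genes, Zfp36 alone was agreeing, at 0.53 and 0.69; despite its name it encodes an RNA-binding protein that destabilises mRNA.

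Lists of the lineages that stem cells can turn into were too small for a count of agreeing genes to show a shift or its absence, with 1.85% of all genes agreeing. Trophectoderm and trophoblast genes (16 measured, median 0.08), extraembryonic endoderm genes (20, median -0.07) and primed pluripotency and gastrulation genes (9, median 0.01) had 0 agreeing members in either direction, and the neuroectoderm list (21, median 0.03) had Vim alone. Of the defining markers, 1 of 6 was measured for trophoblast (Krt18, 0.13 and 0.11), 3 of 5 for endoderm and 2 of 3 for neurons. Among the endoderm markers, Afp was at 0.41 and 0.23. Sox17 (0.175 and -0.34) and Ttr (-0.16 and 0.04) had opposite sides. Coverage of these lineages was therefore thin. The fibroblast markers, 5 of 6 measured, had a median of -0.56 and a range of -0.75 to 0.29.

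In the remaining lists, on cell maintenance, signalling and the interferon response, the counts of agreeing members were too small to set against the 1.85% of all genes. They therefore say nothing particular about the lists. Snrpd1 (0.83 and 0.69) and Hnrnpl were the agreeing members of 46 splicing genes (median -0.01), Aldoa of 22 glycolysis and hypoxia genes (median -0.01), and Psme1 of 34 proteasome genes (median 0.01). Lefty1 and Rara were those of 34 signalling genes (median -0.07). Chaperones and heat shock genes (33, median 0.05) had 0 agreeing members; Hspb8 was at 0.76 and 0.46 and Hspb1, another small heat shock protein, at 0.47 and 0.37. Cholesterol and fatty acid synthesis (16, median 0.06) had 0, with Srebf2, the main regulator of sterol synthesis, at 0.42 and 0.57. The 2 probes of Srebf2 differed (0.86 and 0.73 against -0.01 and 0.42). Acly, of the same list, lay on the other side at -0.33 and -0.19. Interferon response genes (16, median 0.01) had 0, with Tap1, the antigen peptide transporter, at -0.67 and -0.41 and Stat2 at 0.47 and 0.16. Translation factors (36) had 0 and a median of 0.01 on each array but -0.03 over the genes' means, with Eif5a at 0.34 and 1. None of these lists had a median of 0.1 or more in size.

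**Figure D4:**
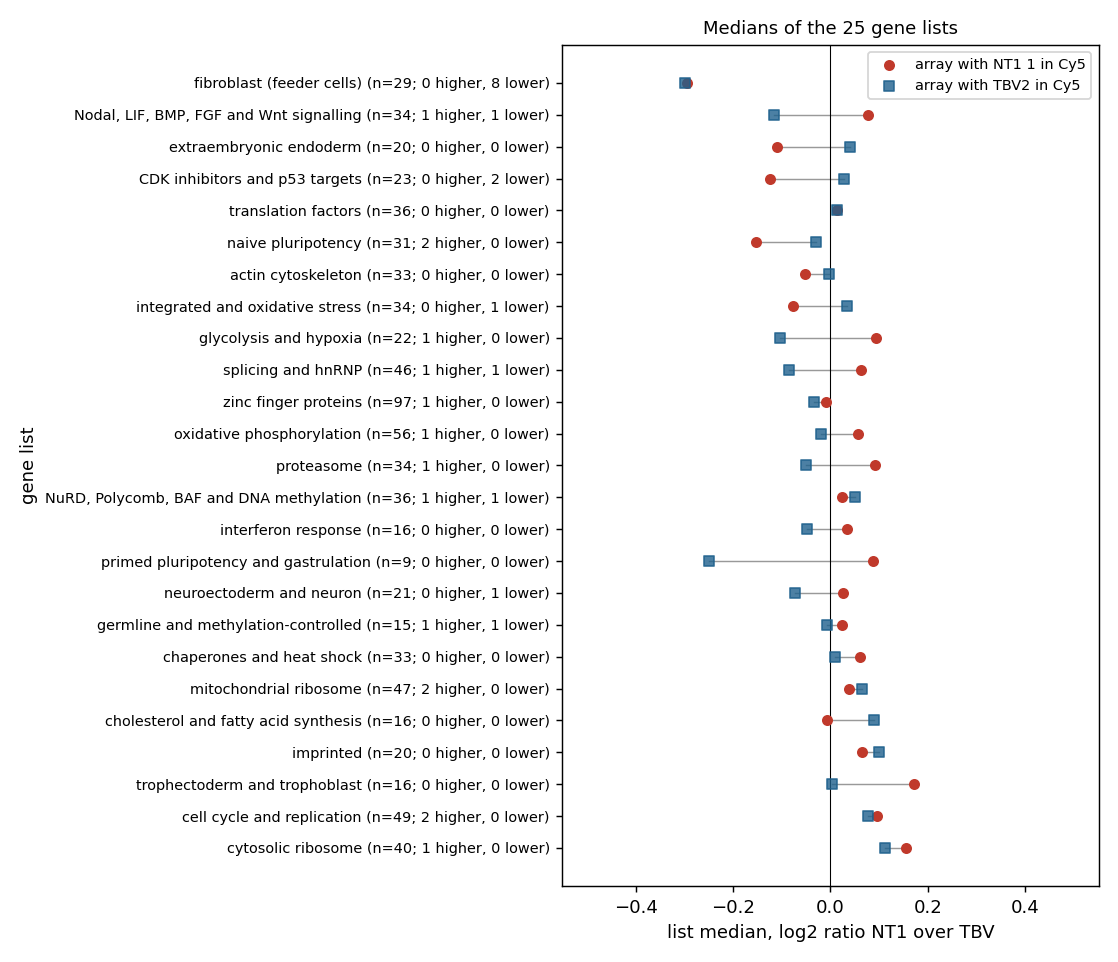
The median log2 ratio NT1 over TBV of each of the 25 gene lists on array 1 (circle) and array 2 (square), with the number of genes measured and agreeing. The fibroblast list stands apart at -0.29 and -0.30; 13 of the other 24 lists have medians on opposite sides of 0 in the 2 orientations.

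Some agreeing genes hold the same promoter motif. AP-1, the dimer of Fos and Jun proteins that drives several matrix protease genes, binds TGACTCA and its reverse complement TGAGTCA. In the 250 bases before the start site in RefSeq (build GRCm38.p6), either form occurred for 7 of the 49 lower genes with a promoter sequence (14.3%), for 2 of 80 higher genes (2.5%), for 313 of 6887 genes measured (4.54%) and for 1395 of 27025 genes in the table (5.16%). The wider TGANTCA, searched first and holding those forms, occurred for 7 (14.3%), 5 (6.25%), 427 (6.2%) and 2113 (7.82%) of them. Each search covers both strands, and no other motif was searched. The genes were chosen from these same arrays, the counts are small and the shares were not tested, so they do not show an enrichment. The stretches around it in 4 lower genes, chosen for their matrix and cell contact roles, are given with the motif in capitals, 5′ to 3′ on the gene's strand.
Mmp3, chr9:7445736-7445821, plus strand: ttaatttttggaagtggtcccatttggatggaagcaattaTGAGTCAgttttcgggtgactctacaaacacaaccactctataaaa
Mmp13, chr9:7272439-7272513, plus strand: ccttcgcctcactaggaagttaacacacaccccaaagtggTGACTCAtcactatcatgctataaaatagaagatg
Col6a1, chr10:76726088-76726174, minus strand: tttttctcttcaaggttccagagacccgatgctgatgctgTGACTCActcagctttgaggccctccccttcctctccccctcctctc
Gja1, chr10:56377241-56377299, plus strand: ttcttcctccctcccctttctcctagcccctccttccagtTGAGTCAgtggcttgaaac
The motif begins 46 bases before the start in Mmp3, 35 in Mmp13, 90 in Col6a1 and 19 in Gja1. A match describes the letters and not binding, and the arrays measured no binding.

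The other source pairs name no source in common with NT1 1 and TBV2 in the labels, which give no passage for these and so do not show whether the RNA came from other cultures. The fibroblast genes differed among them. In NT1p14 with TBVp13 the list median was 0.41, while NT1p12 gave -0.17 with TBVp12 and 0.07 with TBVp13. On single arrays it ran from 0.02 to 0.65 in the first, from -0.25 to -0.06 in the second and from 0.00 to 0.12 in the third, so that only NT1p12 with TBVp12 lay below 0 on every array as NT1 1 with TBV2 did. Col3a1 illustrates the spread, with -0.62 here, 0.93, -0.45 and 1 in those pairs. Col6a3 was at -0.61 here and at 0.40, 0.20 and 0.54, above 0 on all 11 other arrays. A swing between pairs was not particular to the fibroblast list. In NT1p14 with TBVp13 and NT1p12 with TBVp12, the cytosolic ribosome list had medians of 0.43 and -0.44. The proteasome list had 0.38 and -0.28 there, while primed pluripotency and gastrulation genes went the other way, at -0.13 and 0.07. The part of fibroblast RNA in the other results of NT1 1 with TBV2 was not tested.

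**Figure D5:**
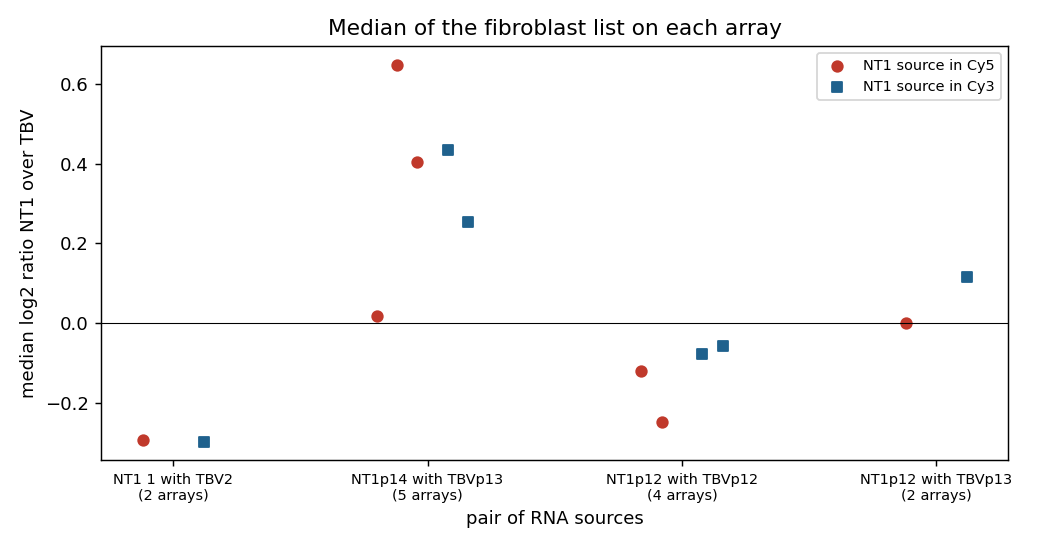
The median log2 ratio NT1 over TBV of the fibroblast list on each of the 13 arrays, grouped by RNA source pair and marked by the dye of the NT1 source. The 2 arrays of NT1 1 with TBV2 lie at -0.29 and -0.30, below every other array, and all 5 arrays of NT1p14 with TBVp13 lie above 0.

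The agreeing genes of both directions lay mostly above 0 in NT1p14 with TBVp13, with medians of 0.33 for higher and 0.39 for lower genes, and mostly below 0 in NT1p12 with TBVp12, with -0.15 and -0.47. Their sides there thus did not follow their direction here, and the shares on the same side have to be read with those medians. Of the higher genes, 72 of 86 measured (83.7%) were on the same side in NT1p14 with TBVp13, against 62.2% of all genes above 0 in both orientations here; in NT1p12 with TBVp12 it was 29 of 91 (31.9%, against 41.0%), with 59.3% on the opposite side. Of the lower genes, 17 of 57 (29.8%, against 53.1%) were on the same side in the first, with 63.2% on the opposite side, and 47 of 60 (78.3%, against 45.0%) in the second. In NT1p12 with TBVp13 the shares were 46 of 78 (59.0%, against 36.2%) and 9 of 55 (16.4%, against 39.4%). The last pair shares a source with each of the others, so the 3 shares are not independent of each other. With the sign of a pair turned, same and opposite sides exchange, since the direction of each pair is not settled.

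In all 3 pairs that name no source in common, treated here as independent, 22 of 84 higher genes (26.2%, against 331 of 1997 genes above 0 here) and 9 of 56 lower genes (16.1%, against 235 of 2141 below 0 here) lay on the same side. At a size of 0.5 or more in each pair, the higher gene was Dnmt3l, at 1 here, at 1.17 in NT1p14 with TBVp13 and at 0.50 in the remaining pair, NT1p12 with TBVp12. The lower genes were Rara (-0.93, -0.83 and -1.75), Hnrnpl (-1.50, -0.83 and -2), Glo1 (-0.70, -0.50 and -1.75), an enzyme that detoxifies methylglyoxal, and Lyzl4 (-0.62, -0.66 and -0.62). Lyzl4 lay on the lower side on all 11 other arrays. These values sit near 0.5 for Dnmt3l and Glo1 in a pair each, where whole numbers are frequent.

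Only the 3 independent pairs give a test, with the sign of each as read from the dyes. With limma and Benjamini-Hochberg adjustment, 0 of 15973 probes (0.0%) passed an adjusted p of 0.05, and 164 (1.03%) had an unadjusted p under 0.05. Of 151 probes of the agreeing genes, 21 had an unadjusted p under 0.05 and 0 passed, with a smallest adjusted p of 1 by limma. The values of the agreeing genes here entered both their choice and this fit, so the 21 are no support for them. The genes above are thus described for 1 pair of RNA sources and are not shown to differ between the lines.

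At the limit of the size rule, Bsg (-0.50 and -0.68), Habp4 (0.65 and 0.50) and Erp44 (0.50 and 0.50) were just inside, and Tbpl1 (0.63 and 0.4996), Psap (0.55 and 0.4989) and Nrros (-0.50 and -0.4987) just outside, each through array 2.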

How the data were processed

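The deposited values are log2 ratios per probe, as read from their range and the dyes; the deposited files do not state the log base, the numerator or the normalization, and the image analysis and background correction are not given in the sources used here. The authors' values of size 1 or more had lost their decimals in this pair. The series has no replicate of NT1 1 or TBV2, and the 2 arrays are technical repeats.

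Probes were named through the platform annotation: 11723 probes had 1 symbol, 806 had several and 7676 had none; of the first, 11590 matched RefSeq by Entrez ID and 0 symbols changed. Each array was centred on its median, turned to NT1 over TBV, and probes of a gene were averaged. Genes with both orientations on the same side and at least 0.5 in size were called agreeing. The text names the 15 genes per direction with the largest smaller orientation (ties by the mean, then by symbol), Sall4, Pou5f1, up to 6 agreeing genes per list and, in a list with none, at most 2 members; others were named after their values were seen. The members, the 25 lists and the markers were chosen with earlier results of these data known.

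The test over pairs used limma 3.58.1 in R 4.3.3, with 1 value per source pair (the mean of its orientations) from 11 arrays, against 0, two-sided, with Benjamini-Hochberg adjustment; NT1p12 with TBVp13 stayed out because it shares both sources. It was also run on simulated data, and the outcome is not given here. Other steps used Python 3.11.15 with pandas 2.3.3, scipy 1.17.1 and matplotlib 3.10.9. A pair's value under 0.005 in size counted as 0. The number of arrays limits the precision; spot intensities and depth are unknown. Alternatives were no centring, a common scale, other sizes, single probes, values with decimals only and each array alone.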

Additional observations from a re-analysis of the deposited data

Results flagged for a closer look

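Several values lay on one side on both arrays of NT1 1 with TBV2 and on the opposite side on every array of another source pair; none of these differences was tested. Against NT1p14 with TBVp13 these were the fibroblast list median of -0.26 and the values of Nans (-0.92), Nabp2 (-0.90), Col6a3 (-0.61) and Mrpl54 (0.63). Against NT1p12 with TBVp12 these were the list medians of cell cycle and replication, 0.10, and of imprinted genes, 0.07, and the values of Col6a3 (-0.61), Top2a (0.71) and Zfp36 (0.61).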

How the results depend on the processing

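The count of 158 agreeing genes (96 higher, 62 lower) moved with the size rule: 451 (272 and 179) at 0.3, 30 (20 and 10) at 1, and 326 (203 and 123) where only the mean had to reach 0.5. Taking every probe on its own gave 333 probes (213 and 120), a count over 17359 probes instead of 8552 genes. A single array gave 710 to 838 genes, 411 to 456 higher and 254 to 427 lower. Without centring the count was 157, on a common scale 157, with decimals on both arrays 115, and without the 17 genes of shared profile, a choice made after seeing the data, 141. The fibroblast median was -0.30 to -0.29 on single arrays and -0.19 with decimals only; its lower genes then numbered 4, of 25 measured, and 3 at a size of 1. Of the other 24 lists, 14 had a median on the other side of 0 in 1 or both orientations, and 4 under another centring, scaling or decimals only. Turning the sign of the other pairs gave same-side shares for higher and lower genes of 9.3% and 63.2% in NT1p14 with TBVp13, 59.3% and 20.0% in NT1p12 with TBVp12, and 8.97% and 43.6% in NT1p12 with TBVp13; genes chosen at 0.3 gave 44.4% and 29.5% in the last pair. The limma count was 0 under every alternative run, with 50 to 888 unadjusted calls. The highest was without NT1p12 with TBVp12, where the smallest adjusted p was 0.153. No pair's sign was turned for limma, so the count of 0 holds only for the signs as read. The cause of these changes was not tested beyond the number of genes each rule admits. No paired analysis was possible because the 2 arrays hold the same 2 RNA sources.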
